A study of Equus caballus with 19 samples.

Results

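The genes described here are 39 components of the contractile and adhesive machinery of the cell: actins and their binding proteins, myosins, the GTPases, kinases and phosphatase subunits that switch myosin on and off, the crosslinkers and adaptors that tie actin filaments to the matrix, and the transcription factor SRF. They were taken by gene name from 29196 gene names in each of 2 tables of normalised counts, and all 39 were present in both tables and passed the filter on low values in both. The cells were wild-type equine tenocytes, the resident fibroblasts of tendon, isolated from the superficial digital flexor tendon of adult Thoroughbred horses, passaged and set in gels of bovine type I collagen held between pins. Each line is 1 animal's cells. In the first batch, lines 1 to 5 were kept for 14 days without cytokine (control) or with 1 nM interleukin-1 beta (IL-1β), which gave 10 libraries. In the second batch, lines 6 to 8 were kept for 14 days as control, with 1 nM IL-1β, or with 1 nM IL-1β and 100 ng/ml of the interleukin-1 receptor antagonist IL1Ra, which gave 9 libraries. No group received IL1Ra alone. Each batch was normalised by itself, so every test was made within a batch and levels are not set against each other across batches.

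Non-muscle cells pull on their matrix by sliding myosin filaments along actin bundles, or stress fibres, that end in focal adhesions. The small GTPase RhoA and its kinases ROCK1 and ROCK2 promote contraction, in part by holding back the phosphatase that removes the activating phosphate from the myosin light chain. Fibroblasts that contract strongly, called myofibroblasts, also express genes first described in smooth muscle, many of which are driven by SRF and its actin-sensitive cofactors. Tenocytes in collagen gels contract the gel over days, and the study measured that contraction; those measurements were not analysed here.

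Normalised counts summed to between 43393900 and 49198000 per library for lines 1 to 5 and between 24964100 and 34602000 for lines 6 to 8. Of the tenocyte markers, the type I collagen genes and DCN were abundant in every library. TNMD was at 0 in every library of the first batch and SCX was at 822 to 2110 normalised counts in its controls and 9.69 to 205 with IL-1β. The 9 of 10 listed tenocyte markers present summed to 1013330 to 1791050 in first-batch controls and 425003 to 805437 with IL-1β, although DCN, one of them, had a higher median with IL-1β (117019 against 59314). The sums of the second batch overlapped, at 237666 to 856667 in control, 304384 to 458712 with IL-1β and 132064 to 792611 with IL-1β and IL1Ra. They add markers that moved opposite ways. There DCN was at 29947 to 55627 in control and 85794 to 170170 with IL-1β. The other tenocyte markers, TNMD aside, had lower medians with IL-1β and overlapping ranges, SCX being at a median of 43.5 against 266 and COL1A1 at 97816 against 221346. The 8 skeletal muscle markers summed to at most 78.7 in lines 1 to 5. In lines 6 to 8 they summed to 25.1 to 389.7 in control, 6.84 to 119.9 with IL-1β and 7.83 to 120.1 with both agents. The highest control values of lines 6 to 8 were 209 for ACTA1, 90.4 for TTN, 80.4 for MYOG and 53.0 for CKM. MYOD1 reached 2.67 and PAX7 was at 0 in those controls, and MYH1 and MYH2 were at 0 in every library. The 9 leukocyte markers summed to 58.3 to 2076 in control and 311 to 3713 with IL-1β in lines 1 to 5, and lines 6 to 8 had 234 to 1269 in control, 683 to 3056 with IL-1β and 736 to 2053 with both agents. CD14 reached 2811 and CD68 reached 1769, while AIF1 was at 0 in every library and PTPRC did not exceed 6.46. The 6 endothelial markers summed to at most 92 in any library. The part of these differences in the results was not tested. In bulk RNA, fewer cells of a type and less RNA per cell cannot be told apart.

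With IL-1β in the first batch, 38 of the 39 genes had a lower mean than in control, the exception being SRF, and 12 were differentially expressed (DE), all of them lower. DE means a limma adjusted p under 0.05 and a log2-fold change of at least 1 in size on the scale of log2(normalised count + 1). Of the 14719 genes tested, 7.90% were DE and lower, 4.91% were DE and higher and 50.3% had a lower mean. In 28 of the 39 genes all 5 lines were lower, beside 25.0% of all genes. The median log2-fold change over the 39 was −0.61, beside −0.0034 over all genes tested. The 12 were ACTA2, TAGLN, DES, LMOD1, SYNPO2, SMTN, MRVI1, MYH10, MYL9, RHOB, PPP1R14A and FLNC. A further 11 genes passed the adjusted p with a smaller change, which makes 23 of 39 lower at any size, beside 14.6% of all genes tested, and 28 had an unadjusted p under 0.05, beside 20.6%. In 22 of the 39 every IL-1β library lay below every control library, against 10.2% of all genes. With the tenocyte line as a block, CNN1 and MYH11 also passed both thresholds, which gave 14 of 39 beside 10.2% of all genes, and 27 passed the adjusted p at any size, beside 22.4%. The 39 genes together took 2.03% to 3.06% of the counts of a control library and 1.43% to 1.73% of those of an IL-1β library.

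**Figure D1:**
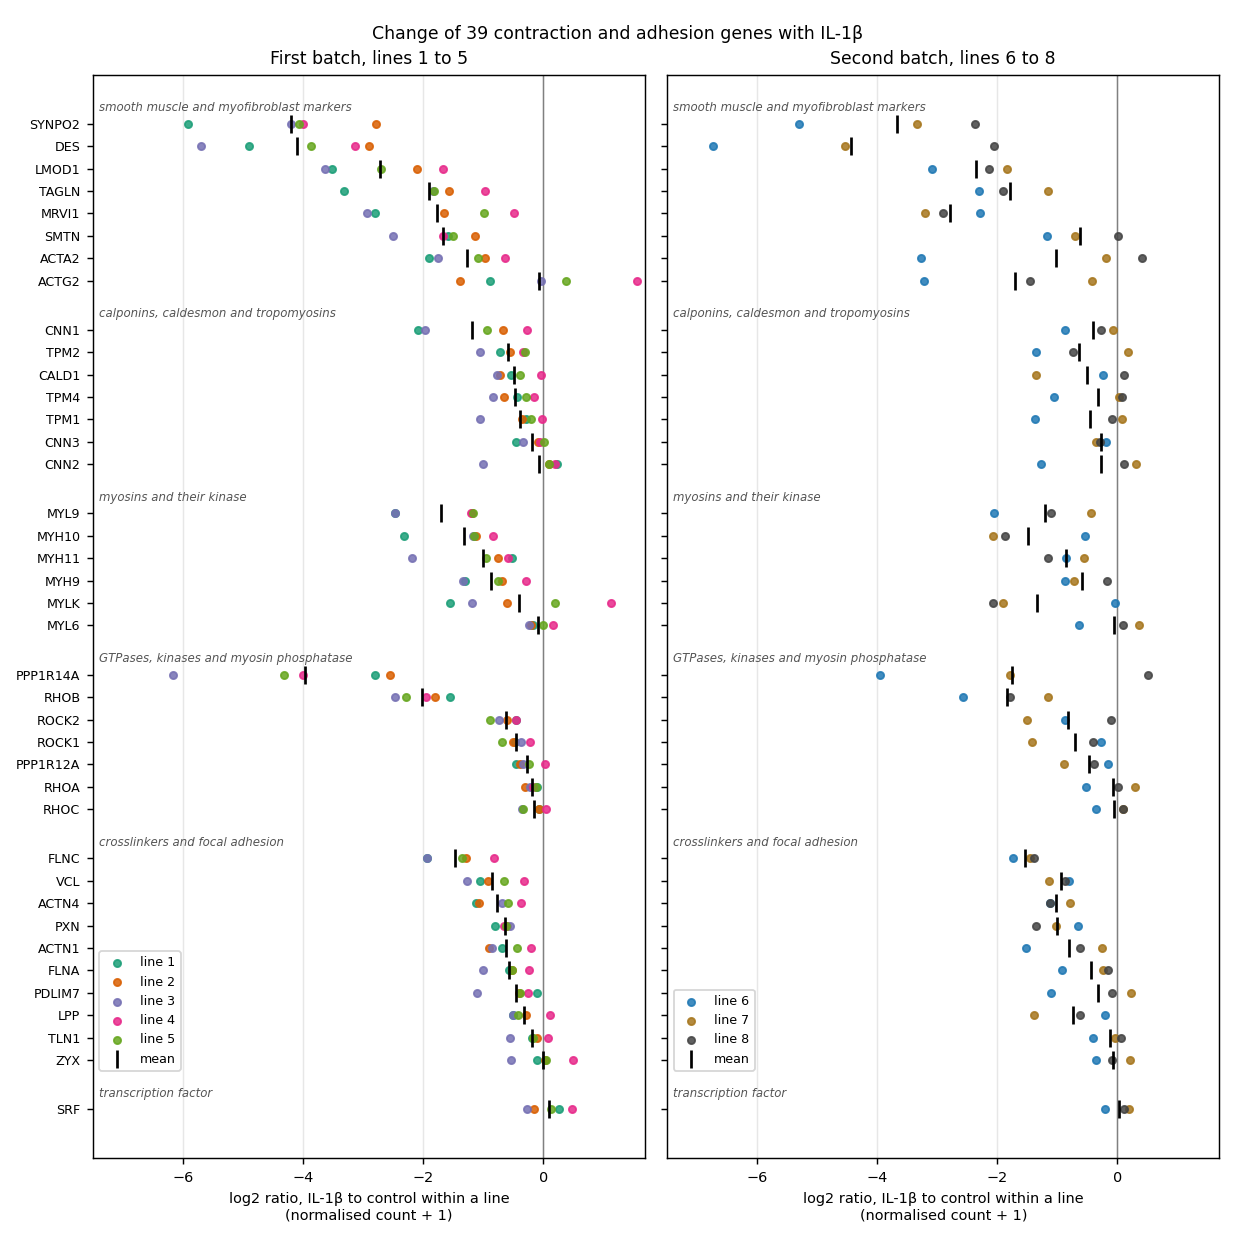
Log2 ratio of IL-1β to control within each tenocyte line (horizontal axis, on normalised count + 1) for the 39 genes, grouped by role, with lines 1 to 5 on the left, lines 6 to 8 on the right and a black bar at the mean. Most points lie left of 0, and in lines 1 to 5 the means of SYNPO2, DES and PPP1R14A lie farthest left. RHOA and RHOC sit close to 0 while RHOB does not.

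The smooth muscle and myofibroblast markers held 7 of the 12 DE genes, 7 of 8 in this group, with a median log2-fold change of −1.84. ACTA2, the smooth muscle alpha actin that serves as the usual myofibroblast marker, was at 32110.2, 33197, 75351, 22547 and 30717 normalised counts in control lines 1 to 5 and at 8556, 16893, 22414, 14489.7 and 14384 in the same lines with IL-1β. All 5 lines were lower, the highest IL-1β value sat just under the lowest control, and the log2-fold change was −1.27 ± 0.33 (SE) with an adjusted p of 0.0156. Without line 1 or line 5 the adjusted p was 0.0503 and 0.0606. TAGLN, or transgelin, an actin-binding protein of contractile cells, was at 62313, 56604, 123039, 43616 and 67242 in control and 6256, 19168, 34473, 22253 and 19098 with IL-1β. Every IL-1β library was below every control, and TAGLN changed by −1.90 ± 0.42 (SE) on the log2 scale (adjusted p = 0.00785).

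The largest falls of the group were in SYNPO2 and DES. DES encodes desmin, the intermediate filament of muscle cells, and was at 1755, 1079, 1570.3, 1677 and 2214 normalised counts in control. With IL-1β it was at 57.5, 144, 29.4, 189 and 149.9, so that the groups were far apart in all 5 lines, with a log2-fold change of −4.10 ± 0.47 (SE) and an adjusted p of 0.000247. SYNPO2, which bundles actin at stress fibres and muscle Z-discs, was at 353, 182, 2531, 454 and 491 in control and 4.85, 25.5, 136, 27.2 and 28.2 with IL-1β. Line 3 was the highest in both conditions, and its IL-1β value still lay under the lowest control; the log2-fold change was −4.20 ± 0.84 (SE) with an adjusted p of 0.00485.

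LMOD1, leiomodin 1, which seeds actin filaments in smooth muscle, was at 3543, 3515, 6931, 2806 and 3952 in control and 307, 819, 559, 883 and 609 with IL-1β. The groups did not overlap, and LMOD1 changed by −2.72 ± 0.31 (SE) on the log2 scale (adjusted p = 0.000231). SMTN, smoothelin, a cytoskeletal protein of contractile smooth muscle, went from 5936, 5406, 11371, 8680.1 and 7404 in control to 1973, 2464, 2015, 2713 and 2622 with IL-1β. The 5 IL-1β values lay close to each other, all under the lowest control, with a log2-fold change of −1.68 ± 0.19 (SE) and an adjusted p of 0.000261. MRVI1, also called IRAG1, a substrate of cGMP-dependent kinase that restrains calcium release from internal stores, was at 2101, 1158, 2271, 754 and 1199.5 in control and 300.3, 368, 295, 537 and 607 with IL-1β. Lines 4 and 5 had the smallest drop but stayed apart from the controls as a group, and the log2-fold change was −1.77 ± 0.33 (SE) (adjusted p = 0.00308).

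The eighth gene of the group, ACTG2, the smooth muscle gamma actin, was at 115128, 97478, 23593, 9482 and 26565 in control and 62132, 37322, 22896, 28059 and 34692 with IL-1β. It was lower in lines 1, 2 and 3 and higher in lines 4 and 5, and its log2-fold change was −0.074 ± 0.63 (SE) with an adjusted p of 0.947. Without line 1 or line 2 its mean difference turned positive (0.13 and 0.25). The actin genes are close in sequence, and how surely reads were split between ACTA2, ACTG2 and the other actins was not tested. Pericyte and vascular smooth muscle markers moved with this group: the summed level of the 6 of 7 listed markers present was 7299 to 9967 in control and 1153 to 3060.3 with IL-1β, CSPG4, a pericyte proteoglycan, being at 3419 to 7579 and 72.8 to 1683 and MCAM at 1327 to 3501 and 441 to 1167. RGS5 and NOTCH3 were also lower in every IL-1β library than in any control, MYOCD overlapped (259 to 621 and 153 to 641), and ABCC9 had a higher median with IL-1β (132 against 0). The part of that difference in the falls of the smooth muscle genes was not tested.

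**Figure D2:**
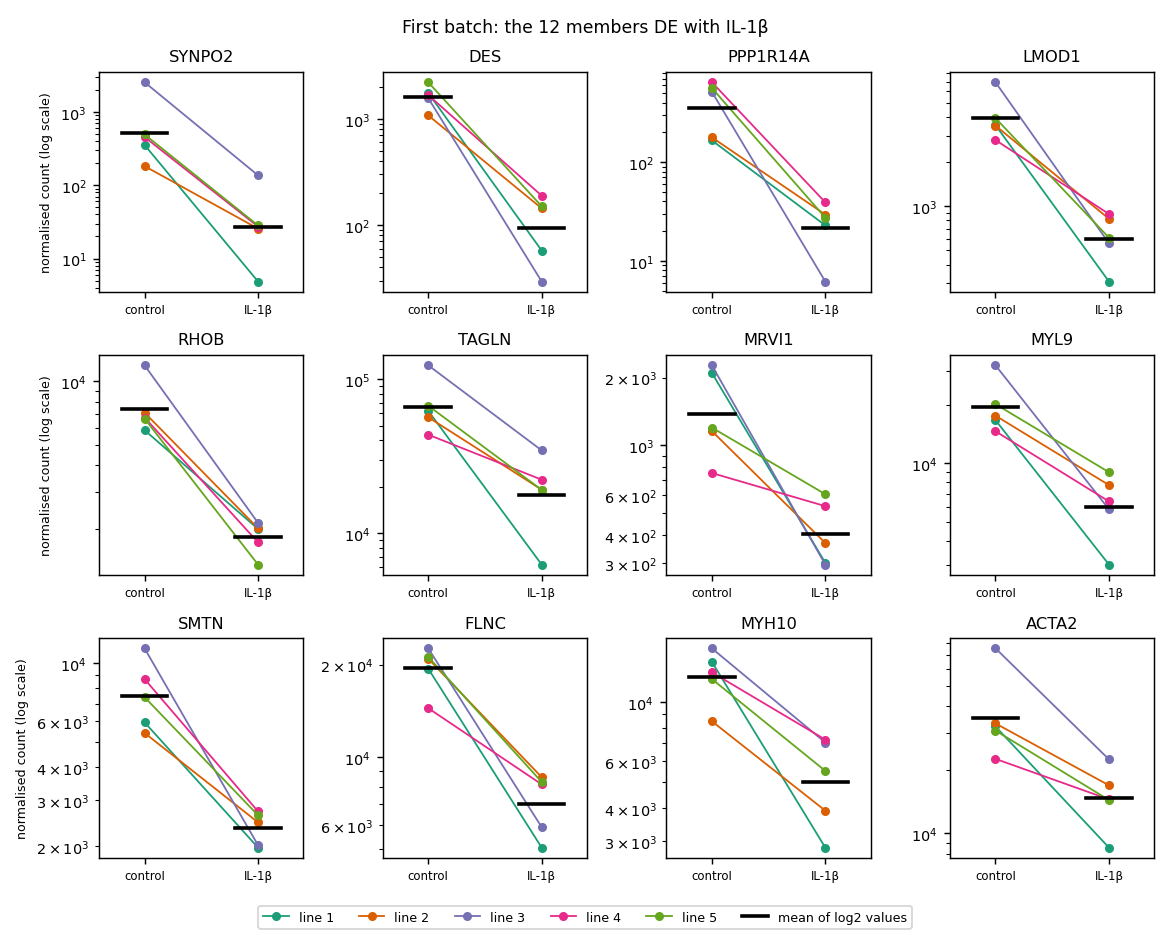
Normalised counts (log scale) of the 12 DE genes in the first batch, with 1 coloured line per tenocyte line from control to IL-1β and black bars at the mean of log2 values. In each panel the 5 IL-1β points lie below the 5 control points.

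Among the calponins, caldesmon and tropomyosins, which sit along actin filaments and gate access of myosin, 0 of 7 were DE (limma) and the median log2-fold change was −0.47, although 4 had an unadjusted p under 0.05. The largest change of the group was in CNN1, calponin 1, at 10514, 12753, 35995, 10051 and 14497 in control and 2475, 8052, 9149.7, 8292 and 7551 with IL-1β. The groups did not overlap and CNN1 was lower in 5 of 5 lines, by a mean of −1.19 ± 0.42 (SE) on the log2 scale, and its adjusted p was 0.06 without the line as a block and 0.0157 with it. Line 3 was the highest control and line 1 the lowest IL-1β library, each set well apart from the other lines of its condition. CALD1, caldesmon, and TPM2, a tropomyosin, passed the adjusted p with changes of −0.49 and −0.59 (adjusted p = 0.0331 and 0.0346). TPM4 (adjusted p = 0.0538), TPM1, CNN3 and CNN2 had log2-fold changes of −0.47, −0.38, −0.19 and −0.077 and did not pass. The difference of CNN2 turned to 0.15 without line 3.

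Of the myosins and their kinase, 2 of 6 were DE. MYL9, the regulatory light chain whose phosphorylation starts contraction, was at 16717, 17632, 32058, 14655 and 20217 in control and 3014, 7739, 5807, 6375 and 9017 with IL-1β. The groups did not overlap, and MYL9 changed by −1.70 ± 0.30 (SE) on the log2 scale with an adjusted p of 0.00237. MYH10, the heavy chain of non-muscle myosin IIB, went from 14137, 8459, 15881, 12909.7 and 12181 to 2836, 3904, 7035, 7211 and 5505. Lines 1 and 2 reached the lowest IL-1β values, all 5 IL-1β libraries lay below the controls, and the log2-fold change was −1.32 ± 0.27 (SE) (adjusted p = 0.0051).

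MYH9, the heavy chain of non-muscle myosin IIA, was lower in 5 of 5 lines by −0.87 ± 0.19 (SE) with an adjusted p of 0.00733, short of the size threshold, and without line 4 it was DE at −1.02 (adjusted p = 0.0108). MYH11, the heavy chain of smooth muscle myosin, was at 4374, 3372, 10703, 1555 and 3659 in control and 3057, 1989, 2364, 1032 and 1882 with IL-1β. It was lower in every line and the groups overlapped, and the adjusted p of its change of −1.001 ± 0.45 (SE) was 0.125 without the line as a block and 0.0161 with it. MYL6, the essential light chain, had a log2-fold change of −0.092 (adjusted p = 0.624). MYLK, the kinase that phosphorylates the regulatory light chain, was lower in lines 1, 2 and 3 and higher in lines 4 and 5, with a mean of −0.40 and an adjusted p of 0.459.

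Of the GTPases, their kinases and the myosin phosphatase genes 2 of 7 were DE. RHOB, a small GTPase of endosomes that is made and turned over quickly, was at 5863, 7091, 11859, 6725 and 6650.5 in control and 2005, 2019.7, 2142, 1734 and 1362 with IL-1β. The IL-1β libraries fell in a narrow band under every control, line 3 being the highest control, and the change was −2.01 ± 0.19 (SE) with an adjusted p of 9.95e-05, the smallest of the 39 genes. RHOA and RHOC, its close relatives, had log2-fold changes of −0.18 and −0.15 (adjusted p = 0.178 and 0.34). PPP1R14A encodes an inhibitor of myosin phosphatase that is itself switched on by phosphorylation, and its values were 166, 179, 517, 646 and 565 in control and 22.9, 29.5, 6.18, 39.2 and 27.4 with IL-1β. Every line was far lower with IL-1β, where line 3 was under 10 counts, and the log2-fold change was −3.97 ± 0.55 (SE) (adjusted p = 0.000701). ROCK1 and ROCK2 passed the adjusted p with small changes of −0.45 and −0.62, lower in 5 of 5 lines each (adjusted p = 0.0158 and 0.00985). PPP1R12A, the subunit that brings the phosphatase to myosin, changed by −0.27 with an adjusted p of 0.0667, which was 0.0339 with the line as a block.

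The crosslinkers and focal adhesion genes had 1 DE gene of 10 and 6 more that passed the adjusted p with changes of less than 1. FLNC, filamin C, the muscle-enriched actin crosslinker, was at 19404, 20912, 22596, 14418 and 21197 in control and 5059.7, 8585, 5900.1, 8137 and 8282 with IL-1β. The groups were apart, and FLNC changed by −1.47 ± 0.18 (SE) with an adjusted p of 0.000318. VCL, vinculin, which reinforces adhesions under load, changed by −0.85 ± 0.13 (SE) (adjusted p = 0.00116), and PXN, the adhesion scaffold paxillin, by −0.64 ± 0.11 (SE) (adjusted p = 0.00196), both with no overlap of the groups. The alpha actinins ACTN4 and ACTN1, filamin A (FLNA) and PDLIM7, a LIM protein of stress fibres, passed with log2-fold changes between −0.77 and −0.45. LPP and TLN1, talin 1, had changes of −0.32 and −0.18 (adjusted p = 0.0515 and 0.214, and with the line as a block 0.0424 and 0.207). ZYX, zyxin, which gathers at strained stress fibres, was at 8548, 6921, 7318, 4603 and 7166 in control and 7994, 7102, 5057, 6477 and 7432 with IL-1β, a mean change of −0.0094 that was positive without line 1 or line 3. SRF was at 3667, 4511, 3643, 2797 and 3634 in control and 4411, 4040.0, 3015, 3914 and 3955 with IL-1β. The ranges of SRF overlapped over most of their width, with a log2-fold change of 0.088 ± 0.14 (SE) and an adjusted p of 0.668, and the mean difference was −0.011 without line 4.

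The ratio between genes of one family was compared in 17 pairs, a comparison added after the values had been seen. It takes 1 gene's log2 value from the other's in the same library, which cancels any scaling of the library. The MYL9 to MYL6 ratio changed by −1.61, RHOB to RHOA by −1.83, RHOB to RHOC by −1.86 and FLNC to FLNA by −0.90, each lower in 5 of 5 lines with no overlap of the groups. For each of these 4 pairs the 2-sided exact permutation p was 0.00794, the smallest that 5 against 5 libraries allow, and 0.0337 after Benjamini-Hochberg adjustment over the 17 pairs. That test ignored that the libraries are paired by line. Permuting the conditions within lines gave each of them an exact p of 0.0625, the smallest that 5 lines allow, and 0.152 after adjustment, so that no pair could pass with the pairing kept. The CNN1 to CNN2 ratio changed by −1.11, with an unpaired exact permutation p of 0.0159 and an adjusted p of 0.054. The other 12 pairs did not pass without the pairing either, and among them RHOC to RHOA changed by 0.031 and ACTG2 to ACTA2 by 1.199, the last higher in 4 of 5 lines. In the second batch the 4 ratios changed by −1.14, −1.77, −1.78 and −1.10 in the same order, lower in 3 of 3 lines with no overlap. No p is given there, because 3 against 3 libraries cannot go below an exact permutation p of 0.1.

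**Figure D3:**
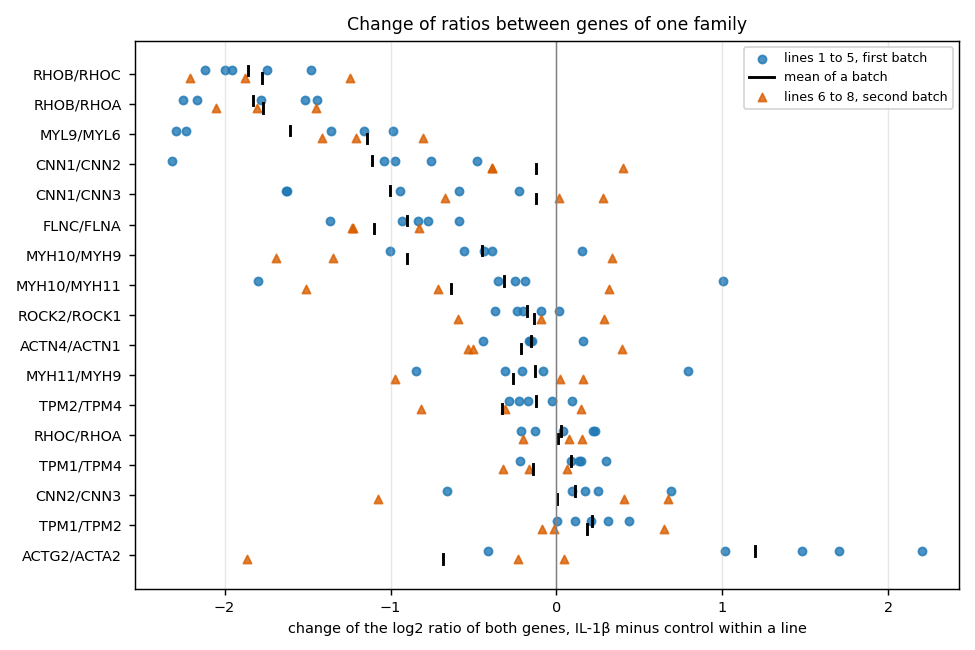
Change of the log2 ratio between 2 genes of one family, IL-1β minus control within a line (horizontal axis), for 17 pairs, with circles for lines 1 to 5, triangles for lines 6 to 8 and black bars at the mean of a batch. All points of RHOB/RHOC, RHOB/RHOA, MYL9/MYL6 and FLNC/FLNA lie left of 0, and the points of RHOC/RHOA lie on both sides of it.

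The lines differed in how far the set moved. In the first batch line 3 had all 39 genes lower with IL-1β and a median log2 ratio of −1.05, while line 4 had 29 lower and 10 higher and a median of −0.28. Lines 1, 2 and 5 had 37, 37 and 33 genes lower and medians of −0.72, −0.66 and −0.58. Line 3 also had the highest control value of every DE gene but DES and PPP1R14A, and of CNN1, MYH11 and other members that were not DE. The median ratio over all genes tested lay between −0.018 and 0.017 in these lines.

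Other genes of the same pathway were taken from lists by function, and their counts stand beside the 7.90% of all genes that were DE and lower. In the actin turnover list 3 of 21 were DE in the first batch, all lower: GSN, gelsolin, which severs filaments (−4.07 ± 0.85 (SE), adjusted p = 0.00602), the formin DIAPH3 (−1.50) and TMSB10, which binds actin monomers (−1.05). The main cytoplasmic actins ACTB and ACTG1 in that list had log2-fold changes of −0.09 and 0.19 and did not pass, and the median of the list was −0.084, beside −0.0034 over all genes tested. In the list of other contractile genes 6 of 20 were DE and lower, among them KCNMB1, a potassium channel subunit of smooth muscle (−3.22 ± 0.63 (SE)), and the intermediate filament protein SYNM (−3.20 ± 0.46 (SE)), and the median of the list was −0.52. In the focal adhesion list 8 of 34 were DE and lower, the largest falls being in the LIM proteins PDLIM3 (−3.40 ± 0.47 (SE)) and PDLIM1 (−2.20 ± 0.27 (SE)) and in TLN2, the second talin (−2.02 ± 0.28 (SE)). The median of that list was −0.44.

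In the list of SRF, MRTF and YAP transcription 4 of 16 were DE and lower, among them CTGF (−1.85 ± 0.31 (SE)) and CYR61 (−1.40 ± 0.36 (SE)), secreted proteins that are usual targets of YAP, and VGLL3, a partner of TEAD factors (−1.49 ± 0.36 (SE)), and the median of the list was −0.24. In the second batch 0 genes of these 4 lists were DE by limma for IL-1β against control, where 0.0718% of all genes were DE and lower. In list order, 1 of 21, 3 of 22, 5 of 34 and 4 of 16 had an unadjusted limma p under 0.05 in either direction. Of all genes tested there, 1907 of 16705 did. With the line as a block, 2 of 21, 3 of 22, 4 of 34 and 2 of 16 were DE and lower there, beside 2.59% of all genes. They included GSN and DIAPH3 of the first list and SYNM and the actin-binding NEXN of the second. TNS1, PDLIM1, PDLIM3 and KANK1 of the focal adhesion list and TEAD4 and CYR61 of the last were also among them.

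In the second batch, IL-1β against control again gave a lower mean for 38 of the 39 genes, SRF aside, but only 2 were DE: MRVI1 and FLNC. Of the 16705 genes tested, 0.0718% were DE and lower and 50.7% had a lower mean. All 3 lines were lower in 24 of the 39 genes, beside 19.4% of all genes. The median log2-fold change of the 39 was −0.73, beside −0.0084 over all genes, and the groups did not overlap in 12 of the 39, beside 7.61% of all genes. An unadjusted p under 0.05 was found for 11 of 39, all lower, beside 5.60% of all genes. With the tenocyte line as a block 6 were DE, namely DES, LMOD1, SYNPO2, MRVI1, FLNC and PXN, where 2.59% of all genes were DE and lower, and 7 passed the adjusted p at any size, beside 2.94%. Scaling every library to the same sum moved the median of all genes to −0.19 in this comparison and that of the 39 to −0.92.

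MRVI1 was at 932, 1841 and 1357 in control lines 6 to 8 and at 191, 199.8 and 181 with IL-1β. The 3 IL-1β values nearly coincided, far under the controls, and the log2-fold change was −2.79 ± 0.25 (SE) with an adjusted p of 0.0146. FLNC was at 9166, 9333 and 6911 in control and 2737, 3388 and 2637 with IL-1β, a change of −1.53 ± 0.22 (SE) with an adjusted p of 0.0381. FLNC did not pass without the intensity trend (adjusted p = 0.0664), with only these conditions fitted (0.0669) or without line 6 (0.0596), where MRVI1 passed (0.00703). Without line 7 or line 8, which leaves 2 libraries against 2, 0 of all genes were DE by limma (adjusted p of 0.343 and 0.714 for FLNC and 0.343 and 0.609 for MRVI1), so those fits say nothing of these genes in particular. Over the 3 fits their log2-fold changes stayed between −1.60 and −1.43 and between −3.05 and −2.59.

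The genes that were DE only with the line as a block kept the direction in 3 of 3 lines. LMOD1 was at 2903, 2102 and 1137 in control and 339, 584 and 256 with IL-1β, and its change of −2.36 ± 0.48 (SE) had an adjusted p of 0.0998 without the block and 0.0214 with it. DES was at 326, 1696 and 393 in control and 2.07, 71.9 and 93.8 with IL-1β. In line 6 DES was close to absent with IL-1β, and the adjusted p of its change of −4.45 ± 1.25 (SE) was 0.208 and, with the block, 0.0399. SYNPO2 was at 707, 55.2 and 59.7 in control and 16.9, 4.54 and 10.8 with IL-1β, where line 6 held the highest value of both groups, and its change of −3.67 ± 1.61 (SE) gave 0.439 and, with the block, 0.049 as adjusted p. PXN was at 1659, 3732 and 2629 in control and 1057, 1836 and 1032 with IL-1β. PXN was lower in each line although the ranges overlapped, with a change of −1.01 ± 0.40 (SE) and adjusted p of 0.387 and, with the block, 0.0239.

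The rest of the first-batch DE genes had lower means in the second batch without passing the threshold. TAGLN was at 66464, 35602 and 20108 in control and 13516, 16045 and 5362 with IL-1β, with no overlap and a log2-fold change of −1.78 ± 0.87 (SE) (adjusted p = 0.49). RHOB was at 4744, 3021 and 1279 and 797, 1355 and 369.6, lower in 3 of 3 lines by −1.84 ± 0.75 (SE). MYL9 was at 17358, 10220.3 and 5514 in control and 4179, 7532 and 2550.3 with IL-1β, a change of −1.20 ± 0.67 (SE). MYL9 and RHOB overlapped between groups although each line was lower. MYH10 was at 4539.8, 5246 and 8385 and 3118, 1249 and 2301, with no overlap and a change of −1.49 ± 0.57 (SE). SMTN was at 5607, 2883 and 1143 and 2483, 1776 and 1152, level in line 8 and lower in the other lines, with a change of −0.62 ± 0.76 (SE). ACTA2, in turn, was at 49745, 19951 and 6616 in control and 5149, 17534 and 8808 with IL-1β. Its direction rested on line 6, since line 7 barely differed and line 8 was higher with IL-1β, and the mean of −1.02 ± 0.96 (SE) became 0.11 without line 6. PPP1R14A was at 318, 81 and 7.84 and 19.6, 22.6 and 11.6, so that line 8 was under 10 counts in control and not lower with IL-1β.

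Line 6 had all 39 genes lower with IL-1β, line 7 had 29 and line 8 had 28. Without line 6 the mean differences of ACTA2, CNN2, TPM4, MYL6, RHOA, RHOC, ZYX, TLN1 and PDLIM7 turned positive, each by 0.23 or less. SRF, with a mean of 0.028, was negative under each of the 3 other scalings tried. The other 17 genes had lower means that did not pass, from −1.70 in ACTG2, whose control level was 4836, 129343 and 63184 in lines 6 to 8, to −0.28 in CNN3. The pericyte and vascular smooth muscle markers summed to 2648 to 5633 in control and 949 to 1705 with IL-1β in this batch. Each marker taken singly overlapped between these groups, CSPG4 being at 105 to 2030 in control and 44.2 to 551 with IL-1β. RGS5 and ABCC9 had higher medians with IL-1β (30.5 against 20.7 and 24.6 against 5.24). The part of these markers in the result was not tested.

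**Figure D4:**
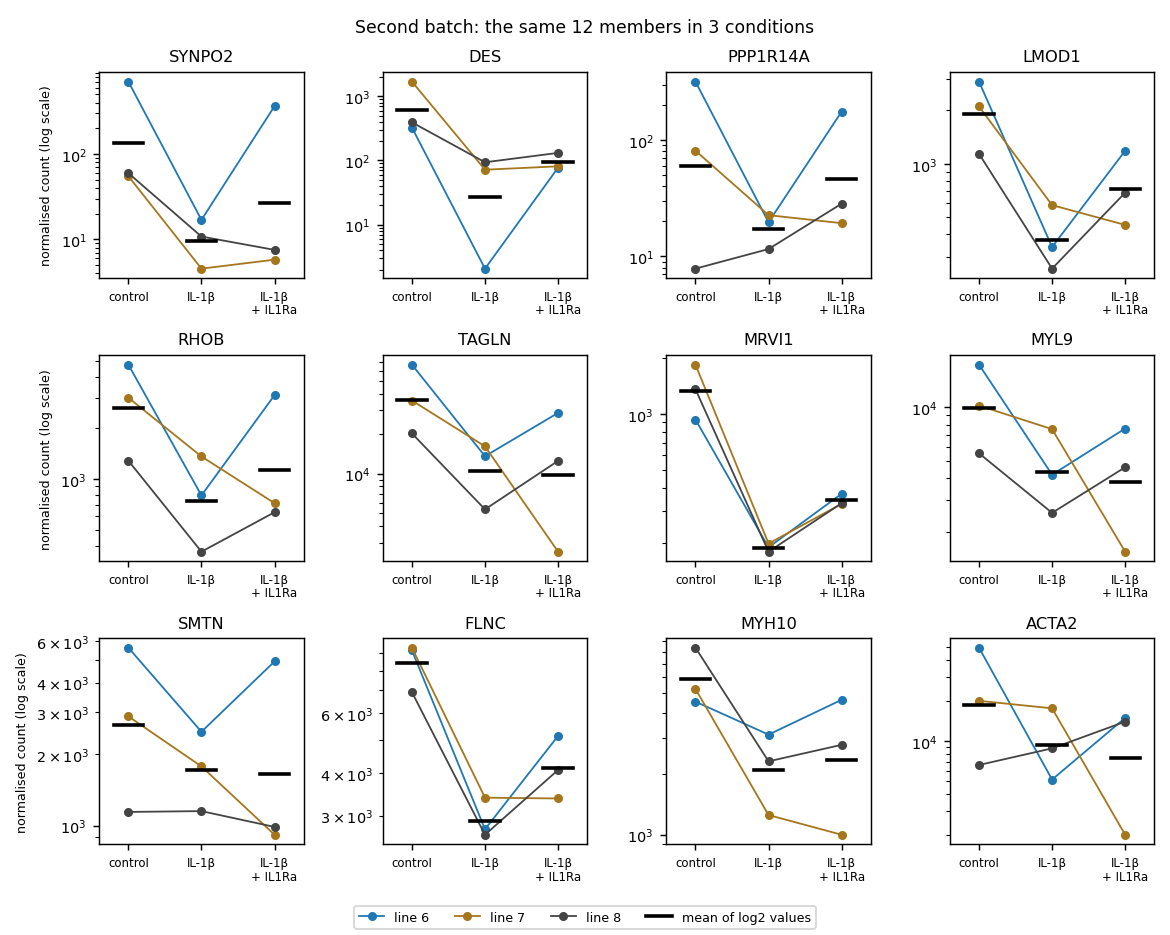
Normalised counts (log scale) in the second batch of the 12 genes DE in the first, in control, with IL-1β, and with IL-1β and IL1Ra, with 1 coloured line per tenocyte line and black bars at the mean of log2 values. MRVI1 steps down in all 3 lines and partly back up with IL1Ra, while line 7 is lower with IL1Ra than with IL-1β alone in ACTA2, TAGLN, MYL9 and RHOB.

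IL-1β with IL1Ra was then set against control, which asks whether the set stayed low with the antagonist present. All 39 genes had a lower mean than control, beside 48.9% of all genes, with a median of −0.65 beside 0.0095 over all genes. In 28 of them all 3 lines were lower, beside 19.3% of all genes. The median log2 ratio over the 39 was −0.68 in line 6, −1.19 in line 7 and −0.27 in line 8. The control libraries are the same as those set against IL-1β alone. By limma 0 of the 39 were DE, where 0% of the 16705 genes were DE and lower. An unadjusted p under 0.05 was found for 7 of the 39, all lower (LMOD1, MRVI1, MYH10, MYH11, ACTN1, FLNC and VCL), beside 2.92% of all genes, and the groups did not overlap in 11, beside 5.96%. MRVI1 was at 371, 327 and 329.6 with both agents, and its change from control of −1.95 ± 0.25 (SE) had an adjusted p of 0.0867, which was 0.0366 with the line as a block, where 0.0419% of all genes were DE and lower. It also passed without line 6 (adjusted p = 0.0441). FLNC was at 5142, 3369 and 4086 with both agents, a change from control of −1.02 ± 0.22 (SE) (adjusted p = 0.382), and MYH11 at 309.6, 279.7 and 171, a change of −1.56 ± 0.61 (SE) (adjusted p = 0.834). The pericyte and vascular smooth muscle markers summed to 1381 to 3094 with both agents, beside 2648 to 5633 in control. Each of them taken singly overlapped with control. RGS5 and ABCC9 had higher medians with both agents (49.8 against 20.7 and 11.6 against 5.24). The tenocyte markers summed to a median of 413310 with 1 library at 132064. The part of both lists of markers in the result was not tested.

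Against IL-1β alone, which asks whether the antagonist raised the set again, IL1Ra gave 0 DE genes among the 39 by limma with or without the block, where 0% of all genes were DE without the block and 0.00599% with it. This comparison shares its libraries with the previous ones. At the same thresholds the paper's DESeq2 analysis did call genes here and for both agents against control. The counts of 0 DE genes are therefore not read as an absence of change. The median over the 39 was 0.04, with 21 means higher and 18 lower (48.9% of all genes had a lower mean), beside 0.0088 over all genes. An unadjusted p under 0.05 was found for MRVI1 and FLNC, 2 of 39, both higher with IL1Ra, beside 2.78% of all genes in either direction. MRVI1 was at 181 to 200 with IL-1β and 327 to 371 with both agents, and its groups did not overlap, which 3.12% of all genes showed in that direction. Its change was 0.84 ± 0.25 (SE) with an unadjusted p of 0.00991 by limma and did not pass after adjustment (adjusted p = 1). FLNC changed by 0.51 ± 0.22 (SE), higher in lines 6 and 8 and nearly level in line 7.

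The lines did not move one way with the antagonist. In line 6, 32 of the 39 genes were higher with IL1Ra than with IL-1β alone, with a median log2 ratio of 0.35, and in line 8 28 were higher, with a median of 0.21. In line 7 only 11 were higher and 28 were lower, with a median of −0.70. ACTA2 was at 14875, 1993 and 13945 with both agents in lines 6 to 8, against 5149, 17534 and 8808 with IL-1β. TAGLN was at 28718, 2568 and 12462 and MYL9 at 7593, 1543 and 4600.3 with both agents. The line 7 library with IL1Ra held the lowest value of its batch for each of these genes and for CNN1 (8786, 815 and 3274), lower than its own IL-1β library. Without line 7 the mean change of ACTA2 was 1.10, that of TAGLN 1.15, that of MYL9 0.86 and that of CNN1 0.57, the median over the 39 was 0.31, and the groups did not overlap, higher with IL1Ra, in 10 of the 39. Without line 6 that median was −0.24, and 7 genes did not overlap with lower values under IL1Ra and 2 with higher. The counts of groups that did not overlap rest here on 2 libraries per condition, where groups separate more easily than with all lines kept. The share of all genes was not computed for them, so these counts are not read as an effect of the antagonist.

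LMOD1 was at 1183, 452 and 687 with both agents, a change from IL-1β alone of 0.95 ± 0.48 (SE) that was positive in lines 6 and 8 and negative in line 7. DES was at 77.3, 81.1 and 131, higher than with IL-1β in 3 of 3 lines, with a mean change of 1.78 ± 1.25 (SE) and the largest ratio in line 6. SYNPO2 was at 364, 5.78 and 7.53, where line 6 was high and both other lines were below 10. RHOB was at 3127, 717 and 633, higher in lines 6 and 8 and lower in line 7, a mean change of 0.61 ± 0.75 (SE). PXN and ROCK2 were also higher with IL1Ra in 3 of 3 lines, by 0.52 ± 0.40 (SE) and 0.38 ± 0.33 (SE), while MYL6, ZYX and SRF were lower in 3 of 3, by −0.54, −0.50 and −0.27, none with an unadjusted p under 0.05. With IL-1β and IL1Ra the 39 genes took 0.998% to 1.58% of the counts of a library, beside 1.21% to 1.61% with IL-1β alone and 2.07% to 2.57% in control.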

How the data were processed

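RNA of 19 libraries was sequenced for the study. Its methods name Oxford Genomics and Novagene for the preparation and do not say which of them handled which batch. Per the methods and the labels, reads were assigned to EquCab3.0 transcripts with Salmon, summed to genes with tximport and normalised with DESeq2 1.36 in R 4.2.1. The deposited signal values are the authors' DESeq2-normalised counts, 1 table per batch. They are not whole reads: within 0.02 of a read, 26.9% to 52.8% of low values came out whole, so no count model was fitted. The strand setting of the counting is not given in the sources used here.

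Genes that reached 10 in 5 or more libraries (first batch) or in 3 or more (second batch) were kept, and log2 values with a pseudocount of 1 were fitted with limma 3.58.1 (trend) in R 4.3.3, with Benjamini-Hochberg adjustment over all genes tested. No fit dropped or imputed a library. Family ratios were tested by exact permutation in scipy 1.17.1. The fits were tested on simulated data. Libraries of a line come from the same animal, so the line number pairs them: deviations from the condition mean had correlations between 0.35 and 0.58 over the 5 same-line pairs of the first batch and between 0.54 and 0.79 over 9 such pairs of the second, against −0.36 to 0.29 and −0.62 to 0.25 between lines. A fit blocked on the line served as the alternative.

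The members and lists were chosen with earlier results of these data known. Library values are printed for members DE in the first batch, or in the second with or without the block, for family partners where a result turns on them, and for a few chosen after their values were seen (ZYX and SRF), and the up to 3 largest rises and falls of each list are named, as are ACTB and ACTG1, also chosen afterwards. Some items of these lists are not reported here. Of the 39 names 38 matched a RefSeq gene table of another assembly than the authors used, and its coordinates were not used.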

Additional observations from a re-analysis of the deposited data

Results flagged for a closer look

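In 3 of 78 groups of 5 libraries 1 value stood far from the other 4 by Dixon's criterion, which by chance happens in about 1 of 20 groups. CNN1 was at 35995 normalised counts in the control of line 3 of the first batch and at 2475 in the IL-1β library of line 1. RHOB was at 11859 in the control of line 3.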

How the results depend on the processing

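In the first batch the 12 DE genes became 23 by adjusted p alone, 20 with a size threshold of 0.5, 27 with the line as a replicate block and adjusted p alone, and 11 to 13 without 1 line. Of all genes tested, 1163 were DE and lower in the main fit. With adjusted p alone 2154 were called lower, with the 0.5 threshold 1843, with the block and adjusted p alone 3290, and without 1 line 759 to 979. In the second batch the 2 DE genes with IL-1β became 1 without the intensity trend or with only the 2 conditions compared, 6 with the replicate block, 7 with the block and adjusted p alone, and 0 to 1 without 1 line. Of all genes, 12 were DE and lower there in the main fit, 8 without the trend and 6 with only the 2 conditions. The number was 433 with the block, 491 with the block and adjusted p alone, and 0 to 136 without 1 line. Against control with IL1Ra present, the count of 0 became 1 with the block (also with adjusted p alone) and 0 to 1 without 1 line. Of all genes, 0 were DE and lower there in the main fit, 7 with the block and 0 to 6 without 1 line. In the second batch, groups that did not overlap, without 1 line, numbered 17 to 22 lower and 0 to 1 higher for IL-1β against control, 12 to 27 lower for both agents against control, and 0 to 7 lower and 2 to 10 higher for both agents against IL-1β, where 2 were higher under each of the 3 other scalings. With 2 libraries per condition left, groups separate more easily than with all 3 lines. The share of all genes was not computed for these counts, so a larger count is not read as a stronger result.

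Without 1 line, these mean changes turned direction, given as their ranges. First batch: ACTG2 −0.48 to 0.25, CNN2 −0.15 to 0.15, ZYX −0.14 to 0.12 and SRF −0.011 to 0.18, and the ratios CNN2 to CNN3 −0.036 to 0.30, MYH11 to MYH9 −0.36 to 0.050, MYH10 to MYH11 −0.65 to 0.054 and RHOC to RHOA −0.020 to 0.092. Second batch, IL-1β against control: ACTA2 −1.73 to 0.11, CNN2 −0.58 to 0.22, TPM4 −0.52 to 0.048, MYL6 −0.27 to 0.23, RHOA −0.25 to 0.15, RHOC −0.14 to 0.089, ZYX −0.22 to 0.065, TLN1 −0.22 to 0.015, PDLIM7 −0.60 to 0.064 and SRF −0.053 to 0.15. Both agents against control: CNN1 −1.65 to 0.0048 and PPP1R14A −1.43 to 0.44. Both agents against IL-1β: ACTA2 −1.24 to 1.10, TAGLN −0.78 to 1.15, SYNPO2 −0.087 to 2.32, SMTN −0.59 to 0.38, CNN1 −1.19 to 0.57, MYH10 −0.026 to 0.42, MYL9 −0.72 to 0.86 and RHOB −0.071 to 1.37. SRF in the second batch with IL-1β was −0.16 with the same sum in every library, −0.0059 with the same upper quartile and −0.021 with quantile normalisation, and SMTN with both agents against IL-1β was 0.037 with the same sum. The cause of these changes was not tested.

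The second batch has 3 lines and lower sums of counts, and PPP1R14A and SYNPO2 had libraries under 10 normalised counts in both batches, where a few counts move the log2 value. The replicate block changed no call of a member beside those given above. A line left out of the second batch leaves 2 libraries per condition, and without line 7 or line 8 no comparison there called any gene by limma (0 of all genes), so a lost call says nothing of a member's stability. The within-line permutation with the replicate block ended the calls of the 4 family ratios (adjusted p = 0.152). The planned description of promoter sequences was not run, and no member was under the filter on low values.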

Other observations

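MKL1, also called MRTFA, the actin-sensitive cofactor of SRF, was picked out after its values had been seen. It was at 3521 ± 319 normalised counts (SD, n = 5) in control and 5476 ± 838 with IL-1β in the first batch, higher in 5 of 5 lines by 0.63 ± 0.11 (SE) with a limma adjusted p of 0.00246. In the second batch it was at 1891 ± 180.4 in control (SD, n = 3) and 3277 ± 620.5 with IL-1β, higher in 3 of 3 lines by 0.78 ± 0.24 (SE) (adjusted p = 0.254). With IL-1β and IL1Ra it was at 2424 ± 710.4, lower than with IL-1β alone in 3 of 3 lines by −0.45 on the log2 scale (adjusted p = 1).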
